A study of Mus musculus with 27 samples.

Results

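The 5 mouse genes whose proteins carry a YTH domain, Ythdf1, Ythdf2, Ythdf3, Ythdc1 and Ythdc2, were followed by symbol through 4 count tables that together name 20847 genes. All 5 had a row in each table and all 5 passed the expression filter in each. The YTH domain is a pocket that binds N6-methyladenosine (m6A), a methyl mark that the Mettl3-Mettl14 enzyme places on messenger RNA, mostly near stop codons. The Ythdf proteins read the mark in the cytoplasm, where Ythdf2 is known for bringing the CCR4-NOT deadenylase to marked transcripts, Ythdf1 for effects on translation and Ythdf3 for acting with both. Ythdc1 is the nuclear reader, tied to splicing, export and chromatin and needed in mouse oocytes, and Ythdc2 is an RNA helicase needed for meiosis in mouse germ cells.

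The study removed these readers or the writer from mouse embryonic stem cells and germ cells and sequenced RNA from 27 libraries in 12 groups. Stem cells of the KH2 line (C57BL/6 x 129/Sv), grown in serum with LIF, gave poly(A) libraries of genotype Ythdf1-/-, Ythdf2-/-, Ythdf3-/-, Ythdf1-/-Ythdf2-/-Ythdf3-/- (triple knockout), Mettl3-/- and WT, 2 libraries each. Germinal vesicle (GV) oocytes came from Mettl3f/f Zp3-Cre+ mice (3 libraries) and Mettl3f/f Zp3-Cre- mice (4 libraries) of a BDF1 X C57BL/6 X Jax#003651 background; both groups carry the floxed allele, and Zp3-Cre acts in growing oocytes. Post-GV oocytes came from Ythdf2-/- mice (2 libraries) and Ythdf2+/- mice (3 libraries), and FACS-sorted round spermatids were Ythdf2-/- (2 libraries) or Ythdf2+/+ (1 library), all on a CB6F1 X C57BL/6 background. Oocyte RNA was amplified by SMART-seq2 from the oocytes of 1 mouse per library, and spermatid RNA was depleted of ribosomal RNA. The labels give no age, no clone number and no description of which exons each knockout allele lacks. A count per gene therefore cannot tell an intact transcript from a mutated one that is still made.

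Depth differed by table. Stem cell libraries held 612598 to 1111764 counts, GV oocyte libraries 6484397 to 18181397, post-GV libraries 12409822 to 25015081 and spermatid libraries 18843689 to 32759740. The stem cell pairs of 1 genotype differed by less than counting error, with a chi-square per gene of 0.700 to 0.840 in 6 of 6 pairs. Stem cell pairs of different genotypes gave 0.857 to 3.996, so values under 1 were not confined to pairs of 1 genotype. Pairs from the other tables, whose libraries were deeper, gave 26.9 or more. Nothing says that the stem cell pairs of 1 genotype came from separate cultures, so stem cell p-values measure only the spread between such libraries and may be too small. Mettl3 itself, the check on the Mettl3 labels, stood at 15.2 to 18.1 CPM in Mettl3-/- stem cells against 137 to 140.5 in WT, and at 0.901 to 3.46 CPM in Cre+ GV oocytes against 13.2 to 41.7 in Cre- oocytes. CPM here is the usual depth-normalised count after TMM scaling of the libraries of a table. The 5 stem cell markers summed to 2397 to 2932 CPM in the stem cell libraries. The oocyte and spermatid marker lists were likewise expressed in the cells that bear their names.

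Comparing readers with each other needs reads that can be assigned to 1 of them, and the 3 Ythdf genes are close relatives. In the GENCODE M21 annotation (GRCm38), Ythdf1 lies at chr2:180904377-180920949 on the minus strand, Ythdf2 at chr4:132184912-132212303 on the minus strand, Ythdf3 at chr3:16183212-16217037 on the plus strand and Ythdc1 at chr5:86804221-86836659 on the plus strand. Aligned coding sequences were 70.4% identical between Ythdf1 and Ythdf2, 71.4% between Ythdf1 and Ythdf3 and 71.8% between Ythdf2 and Ythdf3. The 90-base coding window with the most identical bases in an ungapped alignment of all 3, taken from the GENCODE M21 transcripts, is shown because it is where reads of the paralogues would be hardest to separate; capitals mark the bases at which the genes differ.
Ythdf1: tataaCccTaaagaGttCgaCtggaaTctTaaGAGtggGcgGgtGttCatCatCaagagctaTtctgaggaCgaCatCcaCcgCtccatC
Ythdf2: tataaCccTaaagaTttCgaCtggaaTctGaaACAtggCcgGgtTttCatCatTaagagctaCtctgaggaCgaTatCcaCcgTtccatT
Ythdf3: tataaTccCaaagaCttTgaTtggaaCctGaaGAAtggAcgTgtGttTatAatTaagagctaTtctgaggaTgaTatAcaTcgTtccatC
Of these 90 bases 67 were the same in all 3 genes, and the differing bases recur every few positions. The longest run shared by any pair was 22 bases, between Ythdf1 and Ythdf2, and no stretch of 50 bases occurred in more than 1 of the 5 readers. Other loci overlap them more: 8.55% of the 50-base stretches of Ythdf2 also occur in Gm6823 or Gm8401, and 20.1% of those of Ythdc1 in Gm43055, a long noncoding RNA gene on the same strand with which Ythdc1 shares 631 exon bases. How the authors' counter treated reads there is not given in the sources used here, so counts of Ythdf2 and Ythdc1 carry that uncertainty.

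The m6A writer favours the letters GGACT, so the annotated transcripts of the readers themselves were searched for it on the RNA strand. Ythdf2 held 5 matches in 4129 bases, or 1.21 per kb, and 2 of them lay within 200 bases of the stop codon. Ythdf1 and Ythdf3 held 1 each and the Ythdc1 transcript 0, and Ythdc2 held 3. Over 21661 coding genes the median was 1.02 matches per kb, and 38.7% of transcripts with a full window had a match within 200 bases of the stop codon, 9.30% at least 2. The match nearest the stop codon of Ythdf2 starts 80 bases after it, and is shown beside the coding matches of Ythdf1 and Ythdf3, with GGACT in capitals.
Ythdf1: tcccctgtGGACTacggcacc
Ythdf2: gaaaattaGGACTttttttct
Ythdf3: gcatgactGGACTgaaaattg
A match of 5 letters is a description of the sequence, and methylation was not measured in these files.

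In stem cells, the transcript of the knocked-out Ythdf gene was lower in 1 of the 3 cases, that of Ythdf2, and passed the test against the wider set of controls but not against WT alone. Ythdf1 stood at 174 and 177 CPM in Ythdf1-/- cells, against 179 and 173 CPM in WT cells. The knockout libraries lay within a few percent of the WT libraries, with a log2 fold change of -0.00 ± 0.09 (standard error; edgeR quasi-likelihood adjusted p = 0.995). Ythdf3 stood at 82.0 and 71.8 CPM in Ythdf3-/- cells, against 73.0 and 66.0 CPM in WT cells. The groups overlapped, and the log2 fold change was 0.14 ± 0.23 (adjusted p = 0.867). Set against the 4 genotypes in which the gene is intact (WT, Mettl3-/- and the other 2 Ythdf knockouts), the log2 fold changes were -0.01 ± 0.07 for Ythdf1 and 0.04 ± 0.19 for Ythdf3 (adjusted p = 0.989 and 0.969), where 2.64% and 2.17% of 11951 genes were called at an adjusted p under 0.05.

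Ythdf2, the decay reader, is the least abundant of the 3 per kb in stem cells. It stood at 18.1 and 10.5 CPM in Ythdf2-/- cells, from 14 and 9 counts, against 26.1 and 25.0 CPM in WT cells, from 29 and 28 counts. Both knockout libraries lay below both WT libraries, at 55.9% of the WT mean, but the log2 fold change of -0.85 ± 0.29 did not pass (adjusted p = 0.216). Against the 4 intact genotypes it was lower by -1.39 ± 0.23 on the log2 scale (adjusted p = 0.000129), in a comparison that called 1.1% of genes, 0.184% as lower. Mettl3-/- cells, in which Ythdf2 was high, are among those 4. So are Ythdf1-/- cells (28.9 and 35.0 CPM) and Ythdf3-/- cells (36.8 and 37.2 CPM), whose libraries also lay above both WT libraries. Without Mettl3-/- cells, an alternative chosen after the values were seen, the log2 fold change was -1.14 ± 0.24 (edgeR adjusted p = 0.0173, with 0.678% of genes called). The call was lost without replicate B of the knockout, which had the lower value (-1.02 ± 0.29, adjusted p = 0.328), and DESeq2 gave no adjusted p for this gene.

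The triple knockout did not repeat the fall of Ythdf2. Ythdf2 stood at 35.9 and 30.1 CPM in triple knockout cells, against 26.1 and 25.0 CPM in WT cells, with both triple knockout libraries above both WT libraries. Ythdf1 stood at 161 and 162 CPM in triple knockout cells, against 179 and 173 CPM in WT cells, and Ythdf3 at 82.7 and 63.0 CPM, against 73.0 and 66.0 CPM in WT. The log2 fold changes were 0.36 ± 0.24 for Ythdf2, -0.13 ± 0.10 for Ythdf1 and 0.06 ± 0.23 for Ythdf3 (adjusted p = 0.383, 0.472 and 0.897), and none of the 5 readers was among the 25.1% of genes called, 13.3% as higher and 11.8% as lower. Without triple knockout replicate A or B the genes called were 1809 or 1799, against 2996 with both. Markers of the rare 2-cell embryo-like state summed to 1127 to 1131 CPM in triple knockout cells against 53.5 to 64.9 CPM in WT. The other knockouts were above WT too, at 607 to 656 CPM in Ythdf1-/- and 131.5 to 138 CPM in Ythdf2-/- cells. Ythdf3-/- cells had 279 to 326 CPM and Mettl3-/- cells 73.9 to 87.9 CPM. The part of these markers in the reader values was not tested for any stem cell genotype. A direct comparison added after the values were seen put Ythdf2 higher in triple knockout than in Ythdf2-/- cells by 1.21 ± 0.30 on the log2 scale (adjusted p = 0.00862), where 13.6% of genes were called. Among all knockouts of a Ythdf gene, stem cells and germ cells together, the knockout libraries lay below every control library in 2 of 8 gene and knockout pairs. These were Ythdf2 in Ythdf2-/- stem cells and Ythdf1 in the triple knockout, at 55.9% and 91.5% of the WT mean, and in neither did the comparison with WT pass. The share of all genes that separate in this way was not counted, so 2 of 8 is a description of these pairs only.

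**Figure D1:**
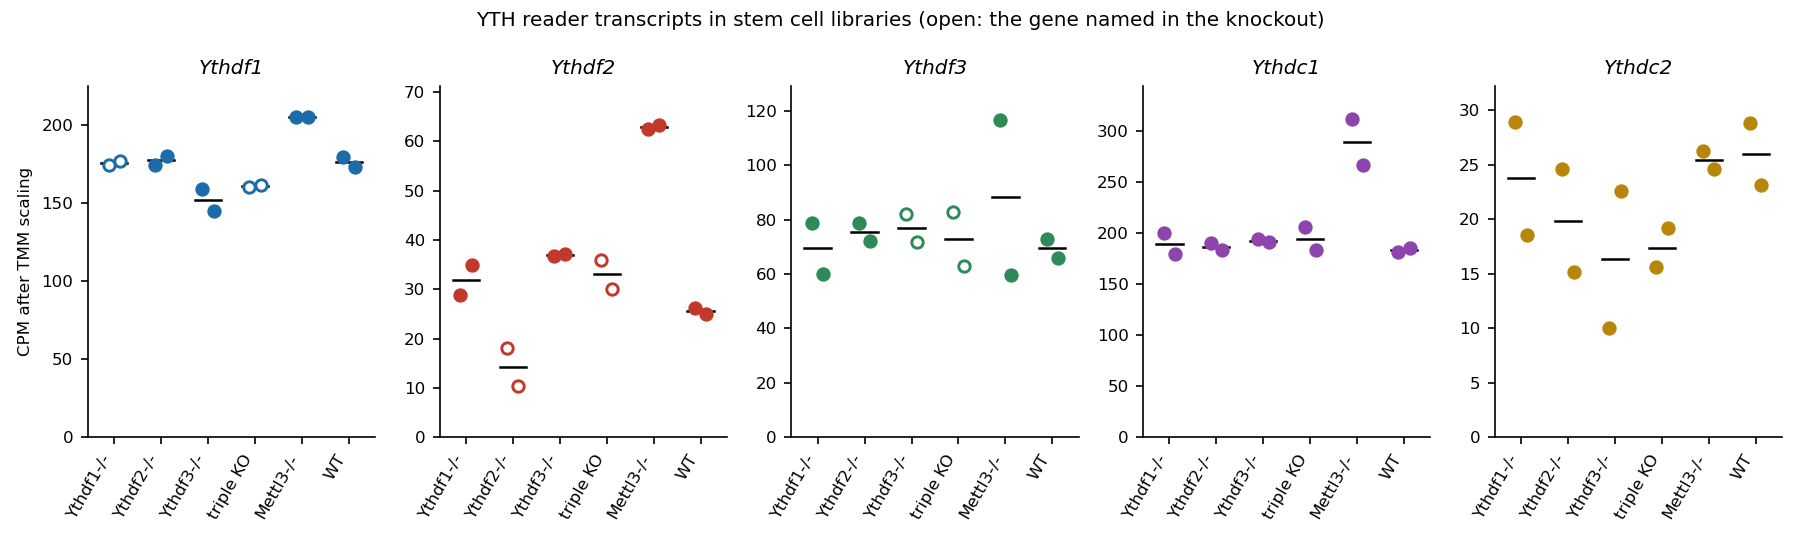
Levels of the 5 reader transcripts in the 12 stem cell libraries, in CPM after TMM scaling. Each point is 1 library and each bar the mean of 2; open points mark the gene named in that knockout. Ythdf2 is lowest in Ythdf2-/- cells (18.1 and 10.5 CPM) and highest in Mettl3-/- cells (62.4 and 63.3 CPM), and Ythdc1 is highest in Mettl3-/- cells (312 and 267 CPM).

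The remaining readers did not pass the test for a rise in any Ythdf knockout of stem cells. None of the 5 was called in Ythdf1-/-, Ythdf2-/- or Ythdf3-/- cells against WT, where 3.45%, 1.91% and 2.84% of genes were. Those shares stand for 412, 228 and 340 genes, and leaving out any 1 of the 4 libraries compared gave 193 to 237, 54 to 123 and 112 to 200, each lowest without replicate B of the knockout. Among the readers other than the one knocked out, the largest log2 value above WT was that of Ythdf2 in Ythdf3-/- cells, at 36.8 and 37.2 CPM, against 26.1 and 25.0 CPM in WT cells. The groups did not overlap, and the log2 fold change was 0.53 ± 0.24 (adjusted p = 0.370). In Ythdf1-/- cells Ythdf2 stood at 28.9 and 35.0 CPM, also above both WT libraries, with a log2 fold change of 0.32 ± 0.23 (adjusted p = 0.640). Ythdf1 ran the other way in Ythdf3-/- cells, at 159 and 145 CPM against 179 and 173 CPM in WT cells (-0.22 ± 0.10, adjusted p = 0.417). Ythdc2 was further below WT there, at 10.0 and 22.6 CPM against 28.8 and 23.2 CPM in WT cells (-0.60 ± 0.31, adjusted p = 0.423). The nuclear reader Ythdc1 stayed between 179 and 206 CPM in every library of the 4 Ythdf knockouts, against 182 and 185 CPM in WT. The meiotic helicase Ythdc2, encoded on chromosome 18, had 6 to 26 counts in a library of these knockouts, against 32 and 26 in WT, so a moderate change in it was not detectable at this depth. Against the mean of the 3 Ythdf1-/-, Ythdf2-/- and Ythdf3-/- genotypes, triple knockout cells likewise showed none of the 5 among the 16.7% of genes called, with log2 differences of -0.19 (Ythdc2) to 0.36 (Ythdf2). Summed over Ythdf1, Ythdf2 and Ythdf3 per kb of exon, triple knockout cells held 71.1 ± 3.43 CPM per kb and WT cells 73.3 ± 2.50 CPM per kb (SD, n = 2 each).

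The comparison of Mettl3-/- with WT cells addresses the readers' transcripts when the mark's writer is lost. In Mettl3-/- stem cells 2 of the 5 rose, Ythdf2 and Ythdc1, in a comparison that called 30.4% of genes, 15.2% as higher and 15.1% as lower. Without Mettl3-/- replicate B 2319 genes were called, against 3630 with both replicates. Ythdf2 stood at 62.4 and 63.3 CPM in Mettl3-/- cells, against 26.1 and 25.0 CPM in WT cells. The groups lay far apart, and the log2 fold change was 1.30 ± 0.20 (adjusted p = 9.75e-07; DESeq2 adjusted p = 0.01). Ythdc1 stood at 312 and 267 CPM in Mettl3-/- cells, against 182 and 185 CPM in WT cells, which the fit gave as 0.64 ± 0.08 (adjusted p = 7.71e-09; DESeq2 adjusted p = 0.0018). The authors' deposited table gave 1.31 for Ythdf2 and 0.66 for Ythdc1 in log2 terms, with adjusted p-values of 0.0136 and 0.00227. It lists Mettl3-/- over WT, and the same libraries underlie both.

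The other 3 readers did not pass in Mettl3-/- cells. Ythdf1 stood at 205 CPM in both Mettl3-/- libraries, above 179 and 173 CPM in the WT libraries, a log2 fold change of 0.22 ± 0.09 (adjusted p = 0.121). Against WT together with the 3 genotypes that lack a single Ythdf gene, a comparison added after the values were seen that called 33.1% of genes, Ythdf1 was higher by 0.27 ± 0.08 (adjusted p = 0.0163). The 2 Mettl3-/- libraries disagreed on Ythdf3, at 117 and 59.7 CPM against 73.0 and 66.0 CPM in WT. Without the second of them, replicate B, Ythdf3 passed as higher (0.74 ± 0.18, adjusted p = 0.00569), and without replicate A it stood lower (-0.21 ± 0.19, adjusted p = 0.566). Ythdc2 stood at 26.3 and 24.6 CPM in Mettl3-/- cells, within the 28.8 and 23.2 CPM of the WT libraries.

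Of the 46 genes tested on lists of m6A writers, erasers, other binders, other methyltransferases and reader partners, 14 were called in Mettl3-/- stem cells. They include the deleted Mettl3 itself and make up 30.4%, the same share as the 30.4% of all genes. Of 7 writer genes tested 3 rose and 1 fell, with a median log2 fold change of 0.27 against -0.00 for all genes. Mettl3 fell by 3.07, while Wtap, the subunit that anchors the complex in nuclear speckles, rose by 1.14 ± 0.09, Rbm15, which binds RNA for it, by 1.11 ± 0.11 and Zc3h13 by 0.41 ± 0.13 (edgeR adjusted p = 6.43e-18, 1.56e-13 and 0.0349). Of 9 CCR4-NOT genes, the deadenylase that Ythdf2 recruits, 1 rose and 2 fell. Cnot3 and Cnot11 fell by 0.68 and 0.90 and Cnot2 rose by 0.27, with a list median of -0.01. Of 7 further decay partners of Ythdf2, among them subunits of the RNase P and MRP endonuclease, 3 rose: Rpp38 by 1.03, Pop1 by 0.90 and Rpp25 by 0.40, with a list median of 0.16. Of 7 other m6A-binding proteins Igf2bp2 rose by 0.27 and Hnrnpc fell by 0.42, with a median of 0.02. The splicing factor Srsf3 was the 1 of 8 Ythdc1 partners to pass, at 0.38, and Mettl5, a ribosomal RNA methyltransferase, the 1 of 5 other methyltransferases, at 0.33. Their medians were -0.04 and 0.14. Neither of the 2 erasers nor the 1 Ythdc2 partner passed.

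Triple knockout cells share the WT libraries with that comparison, and their values are given side by side only. Rpp38, Pop1 and Rpp25 were higher than WT there too, by 0.55, 0.48 and 0.25, Cnot1 and Cnot11 were lower, by -0.88 and -0.61, Igf2bp3 was lower, by -0.46, and Mettl5 was higher, by 0.48. These 7 were the called genes of the lists in that comparison, 15.2% of the 46 tested, against 25.1% of all genes. The list medians were 0.23 for the decay partners, -0.21 for CCR4-NOT, -0.02 for other m6A-binding proteins and 0.19 for other methyltransferases, against -0.00 for all genes. In Ythdf1-/-, Ythdf2-/- and Ythdf3-/- cells against WT no gene of any list was called. Triple knockout cells against the mean of those 3 genotypes had Pop1 higher by 0.51, Rpp38 by 0.50 and Prrc2a by 0.31, and Igf2bp3 lower, by -0.41. These 4 were 8.7% of the 46 tested, against 16.7% of all genes. Against the intact genotypes, which include Mettl3-/- cells, Mettl3 was called higher in all 3 comparisons and Wtap and Rpp38 lower in that of Ythdf1-/- cells. Those calls were 6.52% of the 46 tested in Ythdf1-/- cells and 2.17% each in Ythdf2-/- and Ythdf3-/- cells. Of all genes 2.64%, 1.1% and 2.17% were called.

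In GV oocytes lacking Mettl3, 3 of the 5 readers passed, and they split: Ythdf1 and Ythdf2 rose and Ythdf3 fell, in a comparison that called 28.8% of genes, 15.4% as higher and 13.4% as lower. The count was 3907 genes, against 2254 without Cre+ library 1, 2581 without Cre+ library 2 and 2424 without Cre- library 2. Ythdf2 stood at 439.6, 552 and 502 CPM in Cre+ oocytes, against 232, 126, 146 and 211 CPM in Cre- oocytes. The lowest Cre+ library held more than the highest Cre- library, and the log2 fold change was 1.48 ± 0.24 (edgeR adjusted p = 0.00253). Ythdf1 stood at 133, 173 and 218 CPM in Cre+ oocytes, against 26.0, 60.2, 89.4 and 84.0 CPM in Cre- oocytes. These groups did not overlap either, and the log2 fold change was 1.43 ± 0.38 (adjusted p = 0.0204). Ythdf3 stood at 144, 202 and 189 CPM in Cre+ oocytes, against 341, 440.4, 369 and 391 CPM in Cre- oocytes. Every Cre+ library was below every Cre- library, and the log2 fold change was -1.11 ± 0.20 (adjusted p = 0.00353).

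The nuclear reader Ythdc1 was at the edge of the threshold in GV oocytes. It stood at 130.2, 139 and 206 CPM in Cre+ oocytes, against 55.8, 112, 127 and 86.5 CPM in Cre- oocytes, again with no overlap. The log2 fold change was 0.73 ± 0.30 (adjusted p = 0.0895). With the replicate number as a block it was 0.74 ± 0.22 (adjusted p = 0.0299), the 1 reader whose call the block changed. Ythdc2 stood at 31.1, 41.5 and 65.2 CPM in Cre+ oocytes, against 38.1, 45.9, 60.4 and 61.5 CPM in Cre- oocytes, and the groups overlapped (-0.17 ± 0.30, adjusted p = 0.706). The authors' deposited table, which lists Cre+ over Cre-, gave log2 fold changes of 1.39 for Ythdf2, 1.35 for Ythdf1 and -1.19 for Ythdf3 with p-values of 1.77e-06, 0.0011 and 1.13e-07. Its adjusted p-values for them were 0.46, 0.807 and 0.347, and 0.0694 for Mettl3, whose deposited p was 1.54e-13. Those of Ythdf2, Ythdf3 and Mettl3 exceed what a Benjamini-Hochberg adjustment of the deposited p-values over 16598 genes can give. How they were computed is not given in the sources used here, so they are printed without being read as tests.

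Markers of the somatic cells around the oocyte moved with the GV groups, and their part in the reader values was not tested beyond leaving out libraries. The 7 granulosa and cumulus cell markers summed to 11.2, 145 and 23.7 CPM in Cre+ oocytes, against 224, 489.5, 1164 and 229.6 CPM in Cre- oocytes. Inha made up most of the sum in each library but 1 of the Cre+ group, and Fshr had 0 counts in 1 Cre+ library. Oocyte markers summed to 21420 to 26820 CPM in Cre+ and 14630 to 27140 CPM in Cre- oocytes. The 4 of 6 meiotic spermatocyte markers in the table summed to 153 to 208 CPM and 41.5 to 61.5 CPM. Of these Sycp1, Sycp3 and Hormad1 were higher in Cre+ oocytes, and Piwil1 was lower, at 3.52 to 7.66 CPM against 9.10 to 14.8 CPM. The 2 Cre- libraries highest in granulosa and cumulus cell markers were then left out, an alternative chosen after the values were seen. This gave 1.05 ± 0.22 for Ythdf2, 1.54 ± 0.47 for Ythdf1 and -1.16 ± 0.24 for Ythdf3 (edgeR adjusted p = 0.0117, 0.0443 and 0.00977), with 22.8% of genes called. Ythdc1 then also passed, at 1.03 ± 0.32 (adjusted p = 0.0452). Leaving out the highest Cre+ library as well, with 13.1% of genes called, Ythdf2 and Ythdf3 passed at 1.03 ± 0.27 and -1.20 ± 0.30 (adjusted p = 0.0487 and 0.0439) and Ythdf1 did not (1.59 ± 0.59, adjusted p = 0.118). The call of Ythdf1 was also lost on leaving out any 1 of the 3 Cre+ libraries or Cre- library 2 (adjusted p = 0.0536 to 0.0963).

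**Figure D2:**
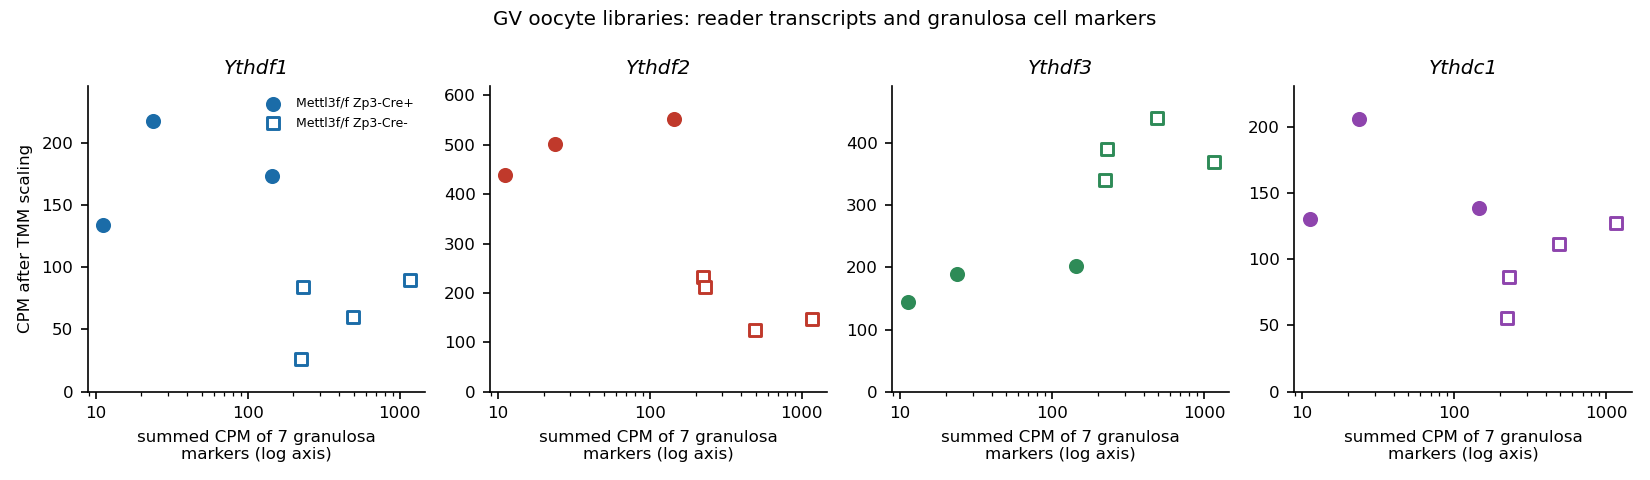
Reader transcripts in the 7 GV oocyte libraries (CPM after TMM scaling, vertical axis from 0) against the summed CPM of 7 granulosa and cumulus cell markers in the same library (log axis). Filled circles are Mettl3f/f Zp3-Cre+ and open squares Mettl3f/f Zp3-Cre- libraries. The 2 Cre- libraries nearest to the Cre+ group in markers (224 and 229.6 CPM) have Ythdf2 at 232 and 211 CPM, below the 3 Cre+ libraries.

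The change of the Ythdf transcripts in GV oocytes was one of make-up as well as level. Per kb of exon, Ythdf2 supplied 58.2 ± 3.50% of the summed Ythdf1, Ythdf2 and Ythdf3 level in Cre+ oocytes and 31.8 ± 9.10% in Cre- oocytes (SD, n = 3 and 4). Ythdf3 supplied 16.2 ± 0.733% in Cre+ and 53.7 ± 6.40% in Cre- oocytes, and Ythdf1 25.6 ± 3.62% and 14.5 ± 6.16%. Their sum was 208 ± 28.8 CPM per kb in Cre+ and 136 ± 9.97 CPM per kb in Cre- oocytes. Shares of the 3 add to 100%, so a higher share of 1 lowers the others. In these bulk libraries fewer cells of a type and less RNA per cell cannot be told apart.

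Of the 44 genes tested on the same lists of writers, erasers, binders, methyltransferases and partners, 11 were called in Cre+ oocytes. They include the deleted Mettl3 itself and make up 25%, against 28.8% of all genes. Of 7 writer genes 2 rose, Cbll1, a ubiquitin ligase of the complex, by 2.00 ± 0.20 and Rbm15 by 1.04 ± 0.22, and Mettl3 fell by 3.77 ± 0.57 (edgeR adjusted p = 0.00029, 0.00795 and 0.00182), with a list median of 0.34 against 0.04 for all genes. Of the 2 erasers, enzymes that remove the mark, Alkbh5 fell by 1.01. Of 9 CCR4-NOT genes Cnot7 and Cnot8, catalytic subunits, fell by 1.51 and 0.66, with a list median of -0.22. Of 6 further decay partners Rpp40, Rpp30 and Rpp14 rose by 0.92, 0.85 and 0.66, with a median of 0.42. Of 5 other methyltransferases Mettl16 rose by 0.87 and Zcchc4 fell by 1.15, with a median of -0.09. None of 6 other m6A-binding genes, 8 Ythdc1 partners and 1 Ythdc2 partner passed. The granulosa marker sums above moved with these genes too, and their part was not tested.

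In post-GV oocytes the Ythdf2 transcript was not lower in the knockout. Ythdf2 stood at 197 and 156 CPM in libraries labelled Ythdf2-/-, against 90.1, 73.2 and 132 CPM in those labelled Ythdf2+/-. Both knockout libraries lay above all 3 heterozygous libraries, at 179% of their mean, so the transcript does not check the genotype labels here. The log2 fold change was 0.84 ± 0.40 (edgeR adjusted p = 0.848). No gene passed in this comparison (0% of 13910, 782 at an unadjusted p under 0.05, and 76 by DESeq2), so none of the 5 readers did.

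The other readers also averaged higher in the libraries labelled Ythdf2-/-, within a wide spread. Ythdf1 stood at 32.1 and 53.7 CPM in Ythdf2-/- oocytes, against 20.6, 28.8 and 15.2 CPM in Ythdf2+/- oocytes, with no overlap (1.00 ± 0.48, adjusted p = 0.848). Ythdc2 stood at 42.4 and 93.5 CPM in Ythdf2-/- oocytes, against 12.5, 12.4 and 58.9 CPM in Ythdf2+/- oocytes. Ythdc1 and Ythdf3 overlapped between the groups as Ythdc2 did, with log2 fold changes of 0.64 ± 0.43 and 0.31 ± 0.47. The authors' batch-adjusted values place Ythdf2-/- library 1 with Ythdf2+/- libraries 1 and 2 in one batch and the remaining pair in another. With that batch as a term Ythdc2 was at 1.31 ± 0.38 (adjusted p = 0.0868) and Ythdf2 at 0.84 ± 0.33 (adjusted p = 0.211). Within the first batch Ythdf2 differed by 1.25 ± 0.46, Ythdc2 by 1.74 ± 0.58 and Ythdf1 by 0.35 ± 0.58, and within the second, with 1 library a group and no test, by 0.22, 0.66 and 1.81. Oocyte markers summed to 7289 to 7934 CPM in Ythdf2-/- and 2419 to 4792 CPM in Ythdf2+/- oocytes, and the 6 of 7 granulosa markers in the table to 28.15 to 96.05 CPM and 86.8 to 215 CPM. The 3 of 4 steroid cell (Leydig list) markers split by batch. In the first batch they summed to 943 CPM in the Ythdf2-/- library and 1806 and 3413 CPM in the Ythdf2+/- libraries. In the second batch they summed to 35.2 CPM in the Ythdf2-/- and 48.3 CPM in the Ythdf2+/- library. Their part in these values was not tested.

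**Figure D3:**
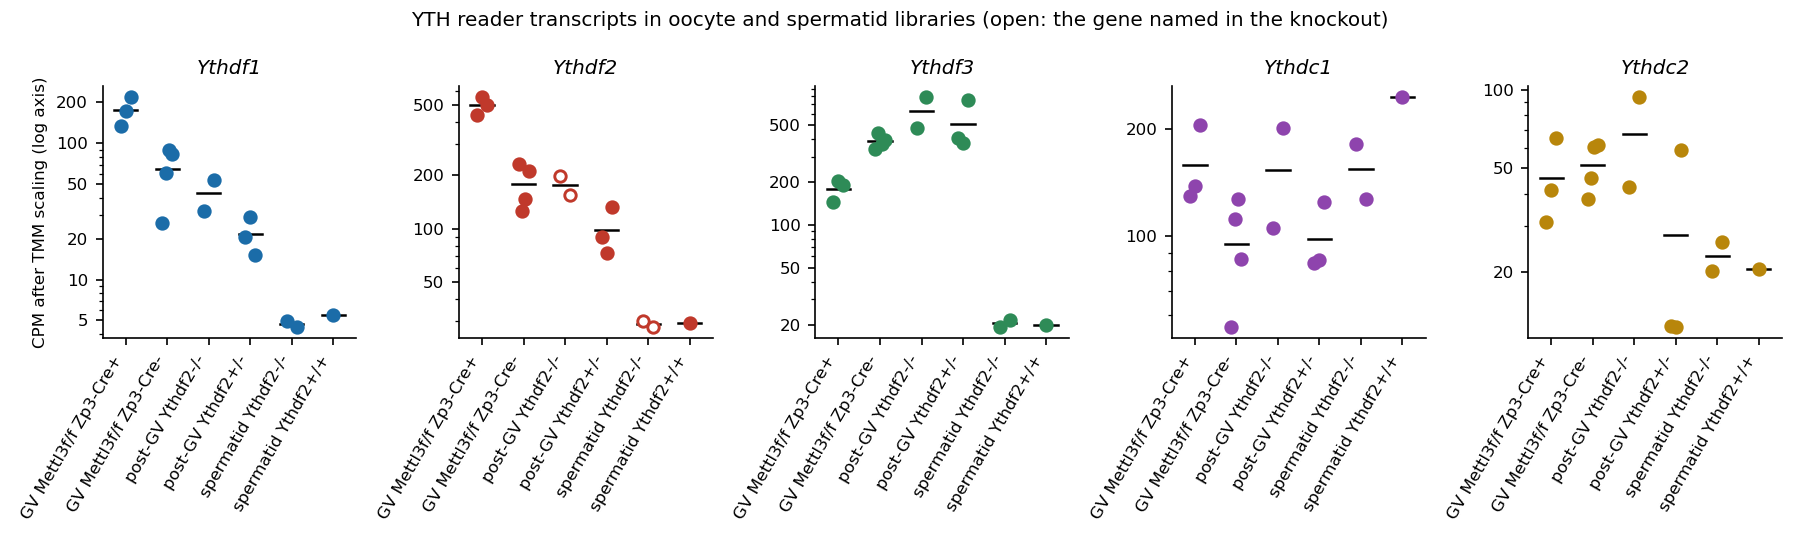
Levels of the 5 reader transcripts in oocyte and round spermatid libraries, in CPM after TMM scaling on log axes. Each point is 1 library and each bar a group mean, with knockouts to the left of their own controls and open points for Ythdf2 in Ythdf2-/- libraries. In GV oocytes Ythdf1 and Ythdf2 are higher and Ythdf3 lower in Cre+ than in Cre- libraries; tables were scaled separately.

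In round spermatids Ythdf2 was level between genotypes. It stood at 29.9 and 27.9 CPM in libraries labelled Ythdf2-/-, from 565 and 643 counts, against 29.2 CPM in the 1 Ythdf2+/+ library, from 915 counts. The knockout libraries lay on either side of the control, with a log2 fold change of -0.02 ± 0.33 (edgeR adjusted p = 0.992), so here too the transcript does not check the labels. Ythdc1, the most abundant reader in these cells per kb, stood at 182 and 128 CPM in Ythdf2-/- spermatids, against 246 CPM in the Ythdf2+/+ library. Both knockout libraries were below the control, and the difference of -0.67 ± 0.24 missed the threshold (adjusted p = 0.0911). Ythdf1, Ythdf3 and Ythdc2 gave -0.21 ± 0.52, 0.04 ± 0.36 and 0.17 ± 0.36, and none of the 5 was among the 4.9% of genes called, 2.64% as lower. All variation in this comparison comes from the 2 knockout libraries, since the control has no replicate. Meiotic spermatocyte markers summed to 476 to 576 CPM in Ythdf2-/- spermatids and 828.5 CPM in the Ythdf2+/+ library, and round spermatid markers to 9144 to 13470 CPM and 7891 CPM. Their part in the Ythdc1 value was not tested. Among the lists only the writer subunit Mettl14 passed, lower by 1.41 ± 0.37 on the log2 scale (adjusted p = 0.00995), with a writer median of 0.04 against 0.08 for all genes. None of 8 Ythdc1 partners passed, with a median of -0.57.

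**Figure D4:**
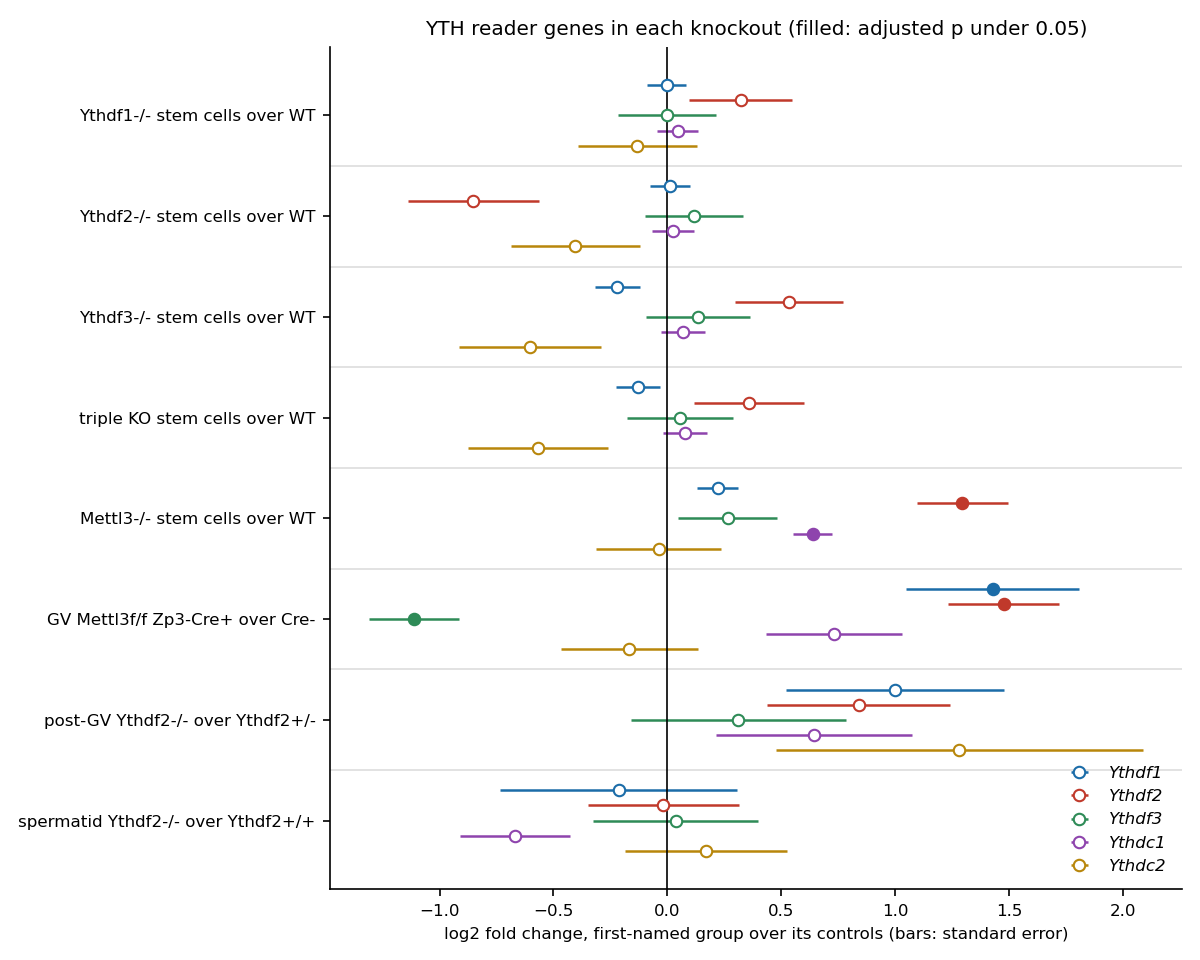
Log2 fold changes of the 5 readers, first-named group over its own controls, with standard errors; filled points have an edgeR adjusted p under 0.05. The 5 filled points belong to the 2 Mettl3 comparisons: Ythdf2 and Ythdc1 in stem cells and Ythdf1, Ythdf2 and Ythdf3 in GV oocytes. The 5 stem cell comparisons share their WT libraries.

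Ranked by level per kb, Ythdc1 led in WT stem cells and in Ythdf2+/+ spermatids, and Ythdf3 in the control oocytes of both stages. In WT stem cells Ythdc1 (55.6 ± 0.743 CPM per kb) and Ythdf1 (53.9 ± 1.37) were close, followed by Ythdf3 (13.1 ± 0.936), Ythdf2 (6.19 ± 0.199) and Ythdc2 (3.60 ± 0.553). In Cre- GV oocytes Ythdf3 led at 72.9 ± 7.97 CPM per kb, then Ythdf2 at 43.3 ± 12.3, Ythdc1 at 28.9 ± 9.48, Ythdf1 at 19.9 ± 8.84 and Ythdc2 at 7.13 ± 1.58. In Cre+ oocytes the leader was Ythdf2, at 121 ± 13.6 CPM per kb, with Ythdf3 ranked 4 of 5 at 33.7 ± 5.77. Ythdf3 led again in Ythdf2+/- post-GV oocytes, at 96.2 ± 39.1 CPM per kb, and Ythdc1 in the Ythdf2+/+ spermatid library, at 74.4 CPM per kb, where Ythdf1 was last at 1.67. Ythdf1 was thus the main Ythdf transcript of WT stem cells (73.6% of the 3), Ythdf3 of Ythdf2+/- post-GV oocytes (75.1 ± 3.72%) and Ythdf2 of the Ythdf2+/+ spermatids (56.5%). These orders compare separately scaled tables made with different kits, so they are levels set side by side with no test. Orders within a table also rest on Ythdf2 and Ythdc1 counts, which carry the uncertainty from sequence shared with other loci. The highest gene held at most 0.182% of counts in a stem cell library, against at most 3.85% in a GV library. How closely counts follow transcript amounts was not tested.

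**Figure D5:**
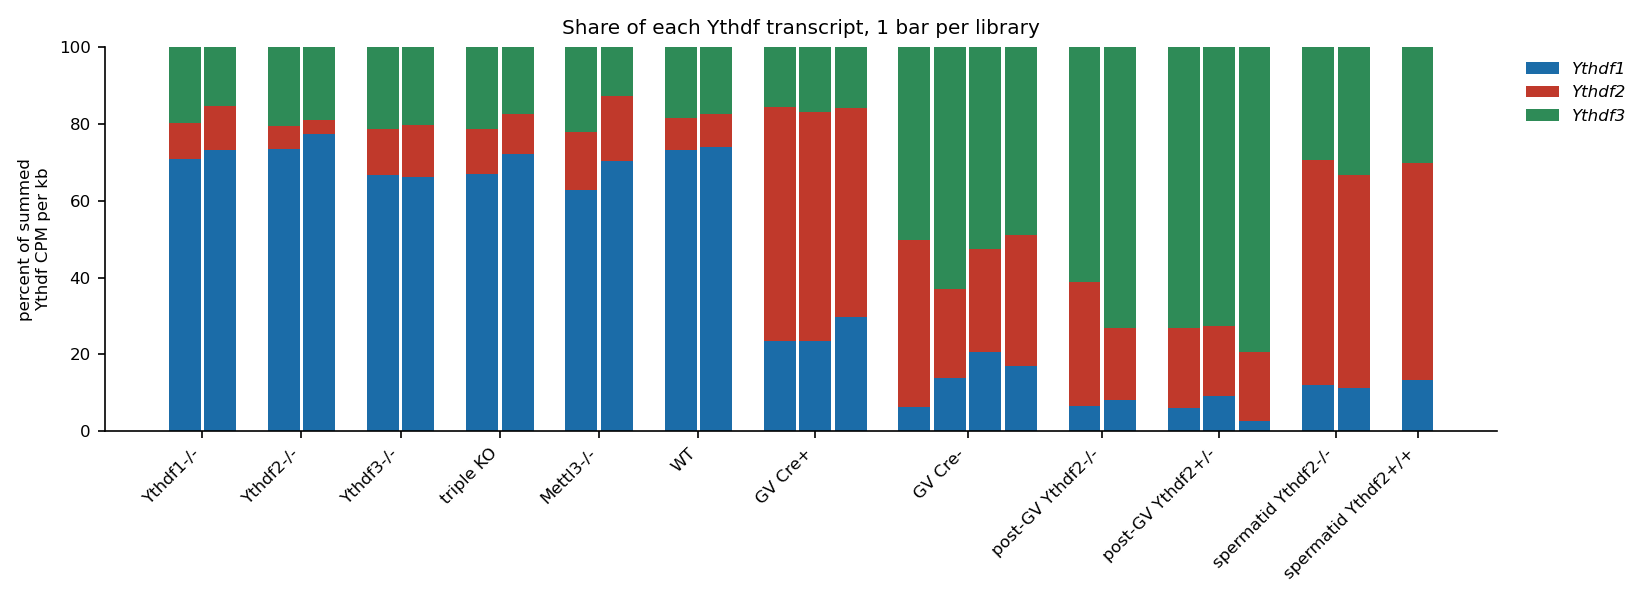
Share of Ythdf1, Ythdf2 and Ythdf3 in their summed CPM per kb of exon, 1 bar per library, knockouts to the left of their controls. Ythdf1 makes up 62.8% to 77.3% in the stem cell libraries, Ythdf2 54.3% to 61.0% in Cre+ GV oocytes against 23.0% to 43.7% in Cre- GV oocytes, and Ythdf3 61.2% to 79.4% in post-GV oocytes.

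Between neighbouring groups in the order of Ythdf1 levels, the libraries of WT, Ythdf1-/- and Ythdf2-/- stem cells and of Cre+ GV oocytes overlapped, at group means of 175 to 177 CPM, and those oocytes also overlapped triple knockout cells, at 161 CPM. For Ythdf3 the 6 stem cell genotypes overlapped from each neighbour to the next, at means of 69.5 to 88.2 CPM. For Ythdc2 every pair of neighbours in the order overlapped, from 68.0 CPM in Ythdf2-/- post-GV oocytes to 16.3 CPM in Ythdf3-/- stem cells. Across the 12 group means of log2(CPM + 1), among 9129 genes tested in all tables, the genes whose pattern was most like that of Ythdf1 were Pdcl, Zfp598 and Snrpb (Pearson r = 0.992, 0.991 and 0.991). They were Lpin2, Mgat4a and Stk35 for Ythdf2 (0.934, 0.933 and 0.926), Yipf4, Unc50 and Kmt2c for Ythdf3 (0.994, 0.994 and 0.992), Fam175b, Slc25a33 and Gtf3c4 for Ythdc1 (0.933, 0.919 and 0.902) and Tbc1d14, Stim2 and Rmi1 for Ythdc2 (0.932, 0.905 and 0.893). Among the readers themselves r was highest between Ythdf2 and Ythdc2 (0.78) and lowest between Ythdf3 and Ythdc1 (-0.67). The 12 points share kit and cell type within a table, so these values describe the libraries only.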

How the data were processed

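Raw counts per gene and library, as deposited by the authors, were the only input to tests. The submitters' processing notes name STAR 2.4.2a, cutadapt, CASAVA 1.8.2, DESeq2 and the mm10 build. Which counter, strand setting and annotation were used, and whether duplicates were removed, is not given in the sources used here. Every gene in a table had 6 counts or more in some library. The authors' deposited normalized signal, their log2 values (regularized, batch-adjusted and fold changes) and their p-values were used only for checks, side-by-side values and, in post-GV oocytes, to read off a batch. A deposited mean of normalized counts (other) was not used. The third Ythdf2+/- oocyte library repeats replicate 2 in its title and was taken as 3 from its bracketed name.

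Tables were analysed separately with edgeR 4.0.16 under R 4.3.3, using TMM factors, the filterByExpr rule and robust quasi-likelihood tests. P-values were Benjamini-Hochberg adjusted over all tested genes: 11951 of 14006 in stem cells, 13551 of 16598 in GV oocytes, 13910 of 16304 in post-GV oocytes and 16031 of 17715 in spermatids. A gene was called at an adjusted p under 0.05. DESeq2 1.42.0 was an alternative, as were other scaling, filters, blocks and left-out libraries. Standard errors are the absolute log2 fold change over the square root of F. Levels are CPM after TMM scaling, per kb of merged exons of protein-coding transcripts in GENCODE M21. The fit was also run on counts simulated independently from its own dispersions, which cannot show whether the real libraries are independent. Members, comparisons and lists were chosen with earlier results of these data known; the text names the 5 members, up to 4 called genes a list by smallest p, and the 3 most alike genes a member, without predicted symbols. In GV oocytes same-numbered libraries gave r = 0.625, 0.104 and 0.404. Pairs with different numbers gave -0.579 to 0.198, and 2 of them, at 0.198 and 0.117, exceeded the 0.104 of a same-numbered pair. The values therefore do not settle whether the number marks a pairing, and it was used only as a block in an alternative fit.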

Additional observations from a re-analysis of the deposited data

Results flagged for a closer look

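Both results below have opposite directions in 2 cell types under loss of Ythdf2, and the difference was not tested, since each table was scaled and fitted alone. They were picked because knockout and control libraries did not overlap in either cell type. The share of all genes that meet the same rule was not counted, so neither is shown to be unusual. The first concerns Ythdf2 itself. Every Ythdf2-/- post-GV oocyte library was above every Ythdf2+/- library, and every Ythdf2-/- stem cell library was below every WT library. The log2 fold changes were 0.84 and -0.85, which differ by 1.69. The second concerns Ythdf1, which was below the Ythdf2+/+ library in both Ythdf2-/- spermatid libraries and above every Ythdf2+/- library in both Ythdf2-/- post-GV libraries. The log2 fold changes were -0.21 in spermatids and 1.00 in post-GV oocytes, a difference of -1.21. None of these 4 fold changes passed its own test, the spermatid values of Ythdf1 rest on 93 and 104 counts against 171, and the post-GV controls are heterozygous where the others are wild type.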

How the results depend on the processing

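Each comparison was refitted with RLE scaling, no filter, a filter of 5 CPM, DESeq2, the compared groups only (stem cells), the replicate block, a batch term (post-GV) and without each library. Of 142 refitted counts of called readers 141 stayed within 1.5 times the reported count. The exception was Ythdf2 in Ythdf2-/- cells against the intact genotypes, with 0 or 1 called without a replicate. The rule also passes a count of 0 that stays 0. It passed the lost Ythdf1 call in GV oocytes and the gained Ythdf3 call in Mettl3-/- stem cells, so it is a weak measure of stability. DESeq2 gave no adjusted p for 3 values, which are not counted. Of 532 single values 519 kept direction and side of the threshold, counting as unchanged 37 sign changes of values closer to 0 than their standard error. The 1 reversal was Ythdf3 in Mettl3-/- stem cells, at -0.21 to 0.74 without a replicate. Without Ythdf2-/- spermatid library 1, Ythdc1 differed by -1.01 with no test. Leaving out the Ythdf2+/+ spermatid library gives no comparison, and no batch fit was run for GV oocytes or spermatids, where no header names one. No paired analysis was possible for spermatids because the groups share fewer than 2 replicate numbers.

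Stem cell libraries of 1 letter deviated together only weakly (r = 0.00695 to 0.149) and share only a letter; the replicate block left each count of called readers there as reported, with Ythdf2 at 1.30 and Ythdc1 at 0.65 in Mettl3-/- cells. In post-GV oocytes the pairs gave r = 0.543 and -0.673 and the block called 3 genes, none a reader. In GV oocytes the block changed no other reader's call and called 4540 genes against 3907.

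DESeq2 called fewer stem cell genes (1241 against 3630 in Mettl3-/-, 785 against 2996 in the triple knockout, 56, 11 and 27 against 412, 228 and 340 in Ythdf1-/-, Ythdf2-/- and Ythdf3-/-). Against the intact genotypes it called 70, 7 and 29 against 315, 132 and 259, and 538 against 1995 in triple knockout cells against the 3 genotypes. It gave 399 against 785 in spermatids, where the 5 CPM filter gave 341. In post-GV oocytes the batch term gave 258 and the first batch alone 666 against 0, with no reader among them. Without a replicate of the knockout the intact-genotype counts were 126 and 142, 37 and 53, and 57 and 63, and triple knockout against the 3 genotypes gave 938 and 1037. The cause was not tested. Depth limits stem cells most: Ythdf2 and Ythdc2 rest on 6 to 54 counts a library.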
